A study of Homo sapiens with 8 samples.

Results

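The keratin, nestin and lamin genes examined here are 10 genes of the intermediate filament family, taken by symbol from the 23346 genes of the table: the keratins KRT7, KRT8, KRT18 and KRT19, the type III and IV filament genes DES, NES and SYNM, and the lamins LMNA, LMNB1 and LMNB2. All were measured in hCMEC/D3, a human brain microvascular endothelial line immortalised with telomerase and SV40 large T antigen and studied in vitro in place of the barrier's own endothelium. The 8 libraries of polyadenylated RNA were replicates of this line with no treatment, time point or second genotype in the labels. They formed a single group, so levels, ratios within libraries and the spread between libraries were examined. The labels did not say whether the replicates were separate cultures, so that p-values measure only the spread between these libraries.

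Intermediate filaments are ropes of coiled-coil proteins. Keratins are obligate heteropolymers: a type I chain such as KRT18 or KRT19 pairs with a type II chain such as KRT7 or KRT8. These 4 keratins are the simple-epithelial set, whereas vimentin is the main filament protein of most endothelial cells. Nestin and synemin are large type IV chains that join vimentin or desmin filaments, and desmin is the type III chain of muscle. The lamins form the meshwork under the inner nuclear membrane. LMNA encodes the A-type lamins A and C, and LMNB1 and LMNB2 encode the B-type lamins.

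Each library held between 69388544 and 90205244 counts. None of the 186768 counts was odd. Counts divided by 2 are called read pairs here and were used for the counting error of DES. The test of variation between libraries used the counts as listed. CPM is the count relative to the TMM-scaled library size, and RPKM is CPM per kilobase of the canonical transcript. The labelled cell type was checked with 10 endothelial genes. All 10 reached at least 1 CPM in every library, led by MCAM (1096 ± 57.1 CPM, SD, n = 8), ENG (690 ± 260) and CDH5 (649 ± 152), the endothelial cadherin. None of 8 epithelial genes other than keratins did so, and their summed level was between 2.18 and 3.52 CPM. The highest were EPCAM, an epithelial adhesion protein, at 0.943 ± 0.375 CPM, CLDN4 at 0.537 ± 0.0793 and ESRP2 at 0.370 ± 0.143 (SD, n = 8). CDH1, the epithelial cadherin, had 0.309 ± 0.106 CPM, and ESRP1, an epithelial splicing factor, had no counts in 4 libraries. In bulk RNA, fewer cells of a type and less RNA per cell cannot be told apart, and the part of other cell types in the keratin levels was not tested.

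Of the 10 genes, 9 reached at least 1 CPM in every library, beside 51.3% of all listed genes, and DES did not. On the RPKM scale the order was KRT7, KRT18, LMNA, LMNB2, LMNB1, NES, KRT8, SYNM, KRT19 and DES. The levels ran from 618 ± 188 RPKM for KRT7 to 0.0803 ± 0.0448 RPKM for DES (SD, n = 8). Of the 9 pairs of neighbours in this order, 7 had ranges that did not overlap. KRT18 and LMNA overlapped, with a log2 ratio of 0.07 ± 0.09 (SD) and KRT18 higher in 7 of 8 libraries. SYNM and KRT19 overlapped as well, with a log2 ratio of 1.39 ± 0.74 and SYNM higher in 7 of 8 libraries. Among the 11636 genes with at least 1 CPM in every library and a known length, KRT7 ranked 88, KRT18 219, LMNA 233, LMNB2 631, LMNB1 990 and NES 1596 by mean RPKM. KRT8, SYNM and KRT19 ranked 4917, 8253 and 10088.

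**Figure D1:**
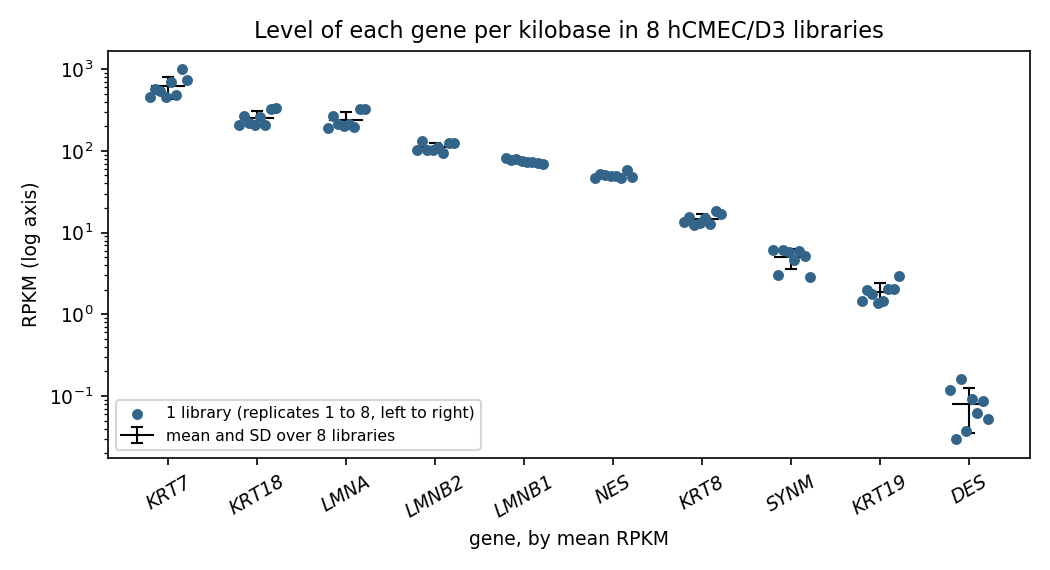
RPKM (log axis) of the 10 genes in each library. Points are libraries, with replicates 1 to 8 from left to right, and bars give the mean and SD. KRT7 lies highest at 618 RPKM, KRT8 at 14.6 RPKM lies more than an order of magnitude below it, and DES lies under 0.2 RPKM in every library.

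KRT7 (chromosome 12, 52626954 to 52642709, plus strand, 9 exons, hg19) encodes a type II keratin of simple and glandular epithelia. Its level was lowest in replicate 1 at 740 CPM, had a median of 903 CPM and was highest in replicate 7 at 1623 CPM. Replicates 8 and 5, at 1216 and 1121 CPM, were the next highest, and the other 5 libraries lay between 740 and 924 CPM. Even the lowest library thus had more KRT7 than the 8 epithelial genes had in sum in any library.

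KRT18 (chromosome 12, 53342655 to 53346685, plus strand, 7 exons), the type I chain of simple epithelia, had a lowest value of 291 CPM in replicate 6, a median of 340 CPM and a highest value of 476 CPM in replicate 8. Replicate 7 was close to the highest at 454 CPM, and replicates 1, 3, 4 and 6 lay between 291 and 314 CPM. Per kilobase, KRT18 had 253 ± 52.4 RPKM (SD, n = 8). KRT19 (chromosome 17, 39679869 to 39684641, minus strand, 6 exons), a short type I keratin, had a lowest value of 1.9 CPM in replicate 4, a median of 2.59 CPM and a highest value of 4.12 CPM in replicate 8. Its counts corresponded to 68 to 174 read pairs per library. KRT18 exceeded KRT19 in 8 of 8 libraries, by a log2 ratio of 7.08 ± 0.25 on log2(RPKM + 0.01) (SD, n = 8). The exact permutation test that flips the signs of the libraries, two-sided, gave p = 0.00781, also after adjustment over the 8 pairs. This p is the smallest that 8 libraries can give, and each of the 8 pairs compared reached it. With a pseudocount of 1 the log2 ratio was 6.46.

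KRT8 (chromosome 12, 53290971 to 53343650, minus strand, 8 exons), the usual type II partner of KRT18, was listed far below both. It had a lowest value of 22.3 CPM in replicate 3, a median of 25.4 CPM and a highest value of 32.8 CPM in replicate 7. Replicates 8 and 2 followed at 29.8 and 27.3 CPM, and the values of all libraries lay within a 1.47-fold range. KRT8 lay below KRT7 in 8 of 8 libraries, by a log2 ratio of -5.36 ± 0.23 (SD), a 41.1-fold difference, and KRT18 exceeded KRT8 by 4.10 ± 0.12, a 17.2-fold difference (exact permutation p = 0.00781 for each, adjusted p = 0.00781, n = 8).

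KRT8 and KRT18 have many processed pseudogenes, which are copies of their mature mRNA. The annotation names 51 pseudogenes of KRT8 and 68 of KRT18, and the table lists 1 of each. KRT8P41 had 0.0353 ± 0.0180 CPM and KRT18P55 had 0.106 ± 0.0385 CPM (SD, n = 8). Windows of the canonical transcripts were searched for exact matches elsewhere in GRCh37. Of the 50-nt windows of KRT8, 47.1% were found at another place, at 36 loci, and 39.15% of those of KRT18 were, at 47 loci. For KRT7 and KRT19 the shares were 0.825% and 1.79%. With 100-nt windows the share fell to 9.02% for KRT8 and to 0 for KRT7, KRT18 and KRT19. Read length and the treatment of reads with several matches were not given in the sources used here.

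The longest exact copy in the coding part of KRT18 is shown because a read lying wholly within it has the same sequence at another locus. A read that runs past its ends need not. The copy holds 97 bases (bases 695 to 791 of the transcript) and recurs at chr3:12829438-12829534 (minus strand, GRCh37), in the processed pseudogene KRT18P17. In KRT18 itself these bases lie between chr12:53344672 and 53345342 and are divided by an intron, whereas in the pseudogene they are unbroken.
KRT18: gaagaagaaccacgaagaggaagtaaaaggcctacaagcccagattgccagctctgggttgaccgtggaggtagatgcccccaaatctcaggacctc

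The longest run that KRT7 and KRT8 transcripts shared was 41 nt, and no other pair of the 10 genes shared more than 29 nt. No 50-nt window was therefore common to both canonical transcripts. The levels were recomputed with lengths shortened by the share of 50-nt windows found elsewhere. The counts were kept, so these values would hold only if no read from those windows had been counted, and they are upper limits on that account. KRT8 then had 27.6 ± 4.01 RPKM and KRT7 623 ± 189 RPKM (SD, n = 8), and the log2 ratio of KRT8 to KRT7 was -4.46. With the longest transcript of each gene it was -6.04. On that account KRT18 had at most 416 ± 86.1 RPKM with the shortened length, against LMNA at 244 ± 57.2 RPKM. The log2 ratio of KRT18 to KRT19 was then 7.77. This limit does not include reads lost where KRT18 overlaps the span of KRT8. With the longest transcripts KRT18 had 171 RPKM and LMNA 213 RPKM, so the order of these neighbours depended on the transcript chosen.

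The listed span of KRT8 also runs into KRT18. The genes overlap on opposite strands over 996 bases (chr12:53342655-53343650), which hold 473 of the 1413 exon bases (33.5%) of the canonical KRT18 transcript and none of the canonical KRT8 transcript. Of those 473 bases, 375 are also exon in a longer KRT8 transcript. The kit does not mark strand, so reads from these bases could not be assigned by strand. With all 473 bases taken out of the KRT18 length, the log2 ratio of KRT18 to KRT8 was 4.69. The ratio without only the 375 bases was not computed.

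**Figure D2:**
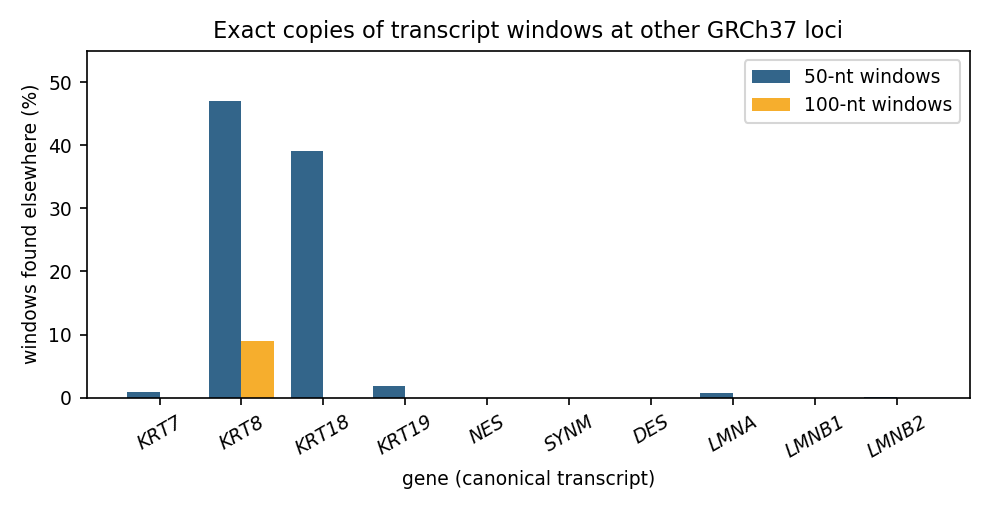
Share of 50-nt and 100-nt windows of each canonical transcript with an exact match at another GRCh37 locus, in percent. KRT8 (47.1%) and KRT18 (39.15%) stand apart from the other 8 genes, whose shares at 50 nt reach at most 1.79%.

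The table listed 55 keratin genes, 29 of type I and 26 of type II. At least 1 CPM in every library was reached by 7 of them. Besides the 4 named above these were KRT80 (53.3 ± 10.2 CPM, SD, n = 8) and KRT10 (24.8 ± 5.52), keratins of the epidermis, and KRT17 (1.89 ± 0.496), a keratin of skin appendages and wounds. The mean of each of the other 48 was at most 1.49 CPM, and 7 of these had no counts in any library. KRT7 and KRT18 together made up 94.9% ± 0.690 of the summed keratin RPKM (SD, n = 8), with 66.9% ± 2.72 from KRT7 and 28.0% ± 2.34 from KRT18. KRT8 and KRT80 contributed 1.64% ± 0.201 and 1.58% ± 0.441. The ratio of type II to type I keratin RPKM was 2.39 ± 0.313 and ranged from 2.11 to 3.05. In every library the type II sum was thus above the type I sum. The shares depended on the length given to KRT18. With lengths shortened by the repeated windows, KRT7 held 56.2% ± 3.08 and KRT18 38.3% ± 2.72, and the type II to type I ratio was 1.53 ± 0.196 (SD, n = 8). Without the KRT18 exon bases inside the listed span of KRT8 the ratio was 1.62 ± 0.212, and with the longest transcripts 3.42 ± 0.454. KRT7 and KRT18 together made up between 94.5% and 95.5% under each of these lengths.

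NES (chromosome 1, 156638556 to 156647189, minus strand, 4 exons), which encodes nestin, a filament protein of neural progenitors and of dividing endothelium, was among the steadiest of the 10 genes. Its lowest value was 260 CPM in replicate 1, its median 272 CPM and its highest 326 CPM in replicate 7. The other 7 libraries lay between 260 and 289 CPM. Per kilobase it had 46.6 to 58.6 RPKM. VIM, which encodes vimentin, had 1131 ± 192 RPKM (SD, n = 8), above every one of the 10 genes by its mean. NES lay below VIM in 8 of 8 libraries by a log2 ratio of -4.49 ± 0.22 (SD; exact permutation p = 0.00781, adjusted p = 0.00781, n = 8). On the authors' CQN-normalised values, which adjust for length and GC content, this ratio was -3.41, so its size depended on the length correction.

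SYNM (chromosome 15, 99645286 to 99675800, plus strand, 5 exons) encodes synemin, which links filaments to adhesion sites. It had a lowest value of 21.3 CPM in replicate 8, a median of 40.3 CPM and a highest value of 44.9 CPM in replicate 1. Replicates 2 and 8, at 22.2 and 21.3 CPM, were set apart from the other 6 libraries, which lay between 34.0 and 44.9 CPM. NES exceeded SYNM in 8 of 8 libraries by a log2 RPKM ratio of 3.38 ± 0.47 (SD; exact permutation p = 0.00781, adjusted p = 0.00781, n = 8).

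DES (chromosome 2, 220283099 to 220291461, plus strand, 9 exons), the desmin gene, had between 3 and 14 read pairs per library. Its lowest value was 0.0665 CPM in replicate 2 (exact 95% Poisson interval 0.0137 to 0.194) and its highest 0.367 CPM in replicate 3 (0.201 to 0.616). These intervals did not overlap, while those of the other 6 libraries overlapped both. They cover counting error only, because reads copied by PCR and not tagged per molecule can repeat one another. The authors gave no CQN-normalised value for DES.

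Markers of cells that carry desmin or nestin were read in the same libraries. Of 8 muscle and mural genes, 5 reached at least 1 CPM in every library, led by RGS5 (14.4 ± 3.77 CPM, SD, n = 8), PDGFRB (9.57 ± 1.63) and ACTA2 (4.74 ± 1.80), and the summed level of the list lay between 28.9 and 41.97 CPM. MYOG, a skeletal muscle factor, had no counts in 7 libraries. Of 6 neural progenitor genes only PAX6 reached that level, at 1.59 ± 0.348 CPM, and the summed level lay between 1.28 and 2.31 CPM. The next highest, MSI1 and SOX1, had 0.121 ± 0.0534 and 0.0245 ± 0.0490 CPM. SOX2 had no counts in 4 libraries.

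The other type III and IV filament genes numbered 7, and VIM, INA and NEFH reached at least 1 CPM in every library. INA (alpha-internexin) had 3.58 ± 1.42 CPM and NEFH (the heavy neurofilament chain) 2.69 ± 0.626 CPM (SD, n = 8). GFAP, the astrocyte filament gene, had 0.557 ± 0.0634 CPM.

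LMNA (chromosome 1, 156084461 to 156109878, plus strand, 12 exons) had a lowest value of 608 CPM in replicate 1, a median of 681 CPM and a highest value of 1045 CPM in replicate 8. Replicate 7, at 1033 CPM, was as high as replicate 8, replicate 2 followed at 839 CPM, and the other 5 libraries lay between 608 and 682 CPM. Counts per gene do not separate lamin A from lamin C. LMNB2 (chromosome 19, 2428164 to 2456958, minus strand, 12 exons) had a lowest value of 442 CPM in replicate 6, a median of 499 CPM and a highest value of 619 CPM in replicate 2. Replicates 7 and 8 followed at 582 and 579 CPM.

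LMNB1 (chromosome 5, 126112315 to 126172712, plus strand, 11 exons) had the smallest spread of the 9 genes on log2(CPM + 0.1). Its lowest value was 199 CPM in replicate 8, its median 214 CPM and its highest 235 CPM in replicate 1. Replicates 8 and 7, the highest for LMNA, were the lowest for LMNB1, with replicate 7 at 206 CPM.

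Per kilobase the lamins had 242 ± 56.8 RPKM (LMNA), 113 ± 13.8 RPKM (LMNB2) and 75.0 ± 4.39 RPKM (LMNB1, SD, n = 8). LMNA held 55.8% ± 4.39 of the summed lamin RPKM, from 50.9% to 62.9%, LMNB2 26.3% ± 1.64 and LMNB1 17.9% ± 3.16. LMNA exceeded LMNB1 in 8 of 8 libraries by a log2 ratio of 1.66 ± 0.38 and LMNB2 by 1.08 ± 0.19 (SD; exact permutation p = 0.00781 for each, adjusted p = 0.00781, n = 8). LMNB1 lay below LMNB2 in 8 of 8 libraries by -0.58 ± 0.22, a 1.49-fold difference (exact permutation p = 0.00781, adjusted p = 0.00781, n = 8). With the authors' CQN-normalised values this ratio was -1.02, and on CPM, which is not per length, -1.26.

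**Figure D3:**
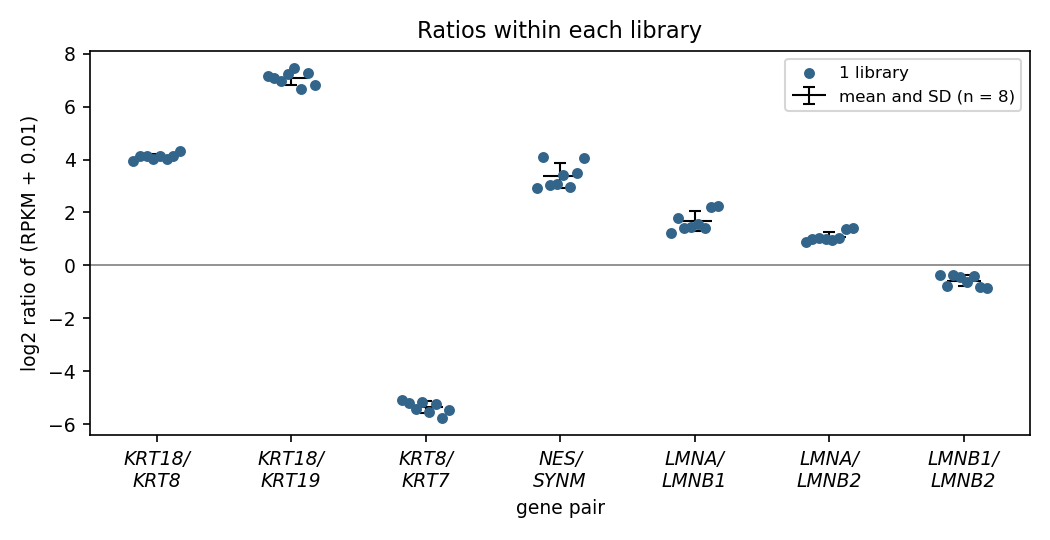
Log2 ratio of RPKM + 0.01 within each library for 7 of the 8 gene pairs. Points are libraries and bars the mean and SD. No pair crosses 0, and the KRT8/KRT7 ratio lies between -5.76 and -5.07.

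The lamina is tethered by inner nuclear membrane proteins and by the bridges that link it to the cytoskeleton. All 13 genes of that list reached at least 1 CPM in every library. The highest were TMPO (lamina-associated polypeptide 2, 366 ± 65.1 CPM, SD, n = 8), SYNE2 (a nesprin, 328 ± 127) and SUN2 (244 ± 23.5). EMD (emerin) and LBR (the lamin B receptor) had 83.5 ± 21.2 and 186 ± 38.0 CPM. A list of 6 genes held enzymes of lamin tail processing and a protein that binds prelamin A. Of these, 5 reached at least 1 CPM in every library. They were led by ICMT (205 ± 7.38 CPM), ZMPSTE24, the protease that cleaves prelamin A (92.2 ± 15.6), and FNTA (61.9 ± 5.32). The exception was FNTB, the beta subunit of farnesyltransferase, at 1.55 ± 0.396 CPM. Overlap with other listed genes was examined only for the 10 genes of this report, so its part in the FNTB level was not tested.

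Proteins that hold keratin or vimentin filaments were read from a list of 13 desmosome and plakin genes, of which 9 reached at least 1 CPM in every library. PLEC, the cytolinker plectin, had 846 ± 207 CPM, MACF1 640 ± 269 CPM and DST 342 ± 164 CPM (SD, n = 8). DSP, the desmosomal plakin that binds keratins, ranged from 5.87 CPM in replicate 8 to 43.6 CPM in replicate 1. Of the desmosomal cadherins on the list, DSG2 had 0.401 ± 0.193 CPM and DSC2 no counts in any library. JUP and PKP2, which also occur outside desmosomes, had 221.8 ± 73.1 and 85.5 ± 23.4 CPM. All 8 proliferation genes reached at least 1 CPM in every library, with TOP2A (818 ± 245 CPM), MKI67 (598 ± 209) and PCNA (310 ± 61.5) highest.

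Whether a gene varied more between libraries than others of its abundance was tested against the dispersion trend of edgeR with its goodness-of-fit statistic. A gene was called above the trend at an adjusted p (Benjamini-Hochberg over 11980 genes) under 0.05. Of the 9 genes tested, 0 were above the trend, beside 4.66% of all genes, and 0 had an unadjusted p under 0.05. The lowest adjusted p-values were 0.716 for SYNM and 0.756 for KRT7 (edgeR). Against the lower trend fitted by DESeq2, 2 of the 9 were above it, SYNM (adjusted p = 0.0197) and KRT7 (adjusted p = 0.0260), beside 24.7% of all genes. With each library's trend on length and GC content removed, 0 of the 9 were above the edgeR trend, beside 776 of 11980 genes. Genes without a known length were included in that share with no trend removed from their counts. KRT7 then had an unadjusted p of 0.00529 (adjusted p = 0.0748, edgeR). Without replicate 8 its unadjusted p was 0.0182 (adjusted p = 0.254, edgeR). The biological coefficient of variation fitted by edgeR is drawn toward the trend for each gene. It was 13.3% for LMNB1, 13.9% for NES and 16.1% for LMNB2, below the trend of 23.2% to 23.3% at their abundance. For KRT7 it was 27.0% and for SYNM 27.9%. The plain coefficient of variation of CPM (SD over mean) was 5.85% for LMNB1, 7.75% for NES, 12.3% for LMNB2, 30.4% for KRT7 and 27.0% for SYNM.

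In the lists read beside them, edgeR placed 4 of 9 desmosome and plakin genes above the trend: DSP (adjusted p = 5.09e-06), DST (1.15e-04), PKP1 (0.00345) and MACF1 (0.00400). DST, MACF1 and DSP were lowest in replicate 8 and PKP1 in replicate 2. Above the trend were also 1 of 3 other filament genes, INA (adjusted p = 0.0205, edgeR), 1 of 13 nuclear membrane genes, SYNE2 (0.0321), and 1 of 10 endothelial genes, EGFL7 (0.0138). No epithelial gene was abundant enough for the test. With each library's trend on length and GC content removed, DSP (adjusted p = 1.12e-08, edgeR), PKP1 (1.34e-06) and INA (1.64e-04) stayed above the trend. DST (adjusted p = 0.287), MACF1 (1), SYNE2 (1) and EGFL7 (1) did not, and the endothelial gene VWF (1.11e-06) was then above it. PECAM1 (adjusted p = 0.0252, edgeR) was called as well, but it had no known length. Its counts were therefore left uncorrected and were set against the lower variation trend of this fit. The count was 0 of 5 for the list of lamin tail processing and prelamin A binding. It was 0 of 5 for muscle and mural genes, 0 of 1 for neural progenitor genes and 0 of 8 for proliferation genes.

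The spread of the 9 genes had a median SD of 0.29 on log2(CPM + 0.1), beside 0.28 over all 11980 genes. On CQN-normalised values the medians were 0.19 and 0.16. The SD of LMNB1 was 0.08 on the CPM scale, and 4.07% of genes had a smaller one. For NES it was 0.11, with 8.10% of genes smaller. KRT7 and SYNM lay at the other end, with SDs of 0.40 and 0.45 and 74.8% and 81.6% of genes smaller. On the CQN scale 88.5% of genes had a smaller SD than KRT7, 25.1% a smaller one than LMNB1 and 37.2% a smaller one than NES.

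Which libraries were high or low depended on the scale. On CPM, 7 of the 9 genes were highest in replicate 2, 7 or 8, beside 54.5% of all genes, and SYNM and LMNB1 were highest in replicate 1. On CQN-normalised values all 9 were lowest in replicate 2 or 8, beside 35% of all genes, and on CPM 2 of 9 were, beside 39%. KRT7 shows the exchange. Replicates 2 and 8 had 924 and 1216 CPM, above the lowest library, but their CQN-normalised values of 10.42 and 10.55 (log2) were the lowest of the 8. Replicate 7 was highest for KRT7, KRT8 and NES on both scales, and its CQN-normalised values for them were 11.40, 5.96 and 8.55.

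**Figure D4:**
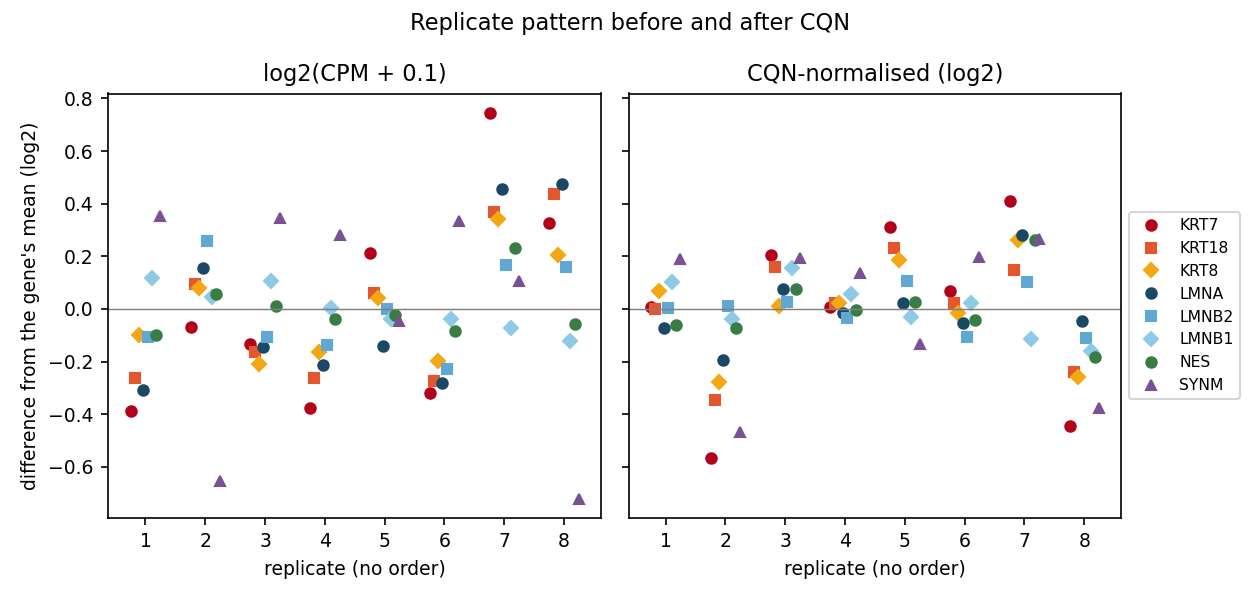
Difference of each library from the gene's mean (log2) for 8 genes, as log2(CPM + 0.1) on the left and as the authors' CQN-normalised value on the right. In replicates 2 and 8, KRT7, KRT8 and KRT18 lie near or above their mean on the left and below it on the right, whereas SYNM is low on both sides.

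The libraries differ in how counts depend on transcript length. Measured over the other genes, the slope of a library's deviations per doubling of transcript length lay between 0.08 and 0.14 (log2) in replicates 1, 3, 4, 5 and 6 and was -0.22, -0.10 and -0.33 in replicates 2, 7 and 8. These 3 libraries also had the highest total counts, 82013826 to 90205244, and the part of depth in the relations was not tested. On CPM the level moved with this slope for 6 of 9 genes, beside 68.4% of all 11980 genes, at an adjusted p under 0.05 over all of them. The share of the 9 genes was thus near that of all genes. For LMNA, Pearson's r was -0.90 (exact permutation p = 0.00637, adjusted p = 0.0123, n = 8) and Spearman's rho -0.90 (exact permutation p = 0.00456, adjusted p = 0.0215). SYNM moved the opposite way, with r = 0.93 (exact permutation p = 0.00598, adjusted p = 0.0117, n = 8) and rho = 0.98 (exact permutation p = 3.97e-04, adjusted p = 0.00629). For LMNB2, KRT18, KRT19 and KRT8, r was -0.89, -0.87, -0.81 and -0.79 (exact permutation p = 0.00580, 0.0105, 0.0137 and 0.0218, adjusted p = 0.0114, 0.0186, 0.0231 and 0.0341, n = 8). Their rho was -0.71, -0.86, -0.62 and -0.79 (exact permutation p = 0.0576, 0.0107, 0.115 and 0.0279, adjusted p = 0.102, 0.0356, 0.171 and 0.0627). By rho, 3 of the 9 genes passed, beside 34.7% of all genes. With adjustment over the 9 genes, KRT8 and KRT19 each lost the call in 5 of the 8 fits that left out 1 library, KRT18 in 4, and SYNM and LMNA in 1, that without replicate 8.

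The relation did not pass for KRT7 (r = -0.61, exact permutation p = 0.107, adjusted p = 0.137, n = 8; rho = -0.79, exact permutation p = 0.0279, adjusted p = 0.0627), LMNB1 (r = 0.55, exact permutation p = 0.153, adjusted p = 0.190; rho = 0.69, p = 0.0694, adjusted p = 0.116) or NES (r = -0.34, exact permutation p = 0.435, adjusted p = 0.482; rho = -0.45, p = 0.267, adjusted p = 0.337). Without replicates 2 and 8, the farthest from the median slope, r was -0.97 for LMNA, -0.92 for LMNB2, -0.96 for KRT18, -0.97 for KRT8, -0.95 for KRT7, -0.94 for NES, 0.62 for LMNB1, 0.58 for SYNM and -0.51 for KRT19. In those 6 libraries only replicate 7 had a negative slope, so the values rest on it. With 5 libraries of positive and 3 of negative slope, the relation could not be tested within either. Over all 8 libraries r was positive only for SYNM and LMNB1, whose transcripts have 7352 and 2890 nt. It was negative for NES and LMNB2, with 5568 and 4634 nt. GC content was 52.2% for SYNM and 47.8% for LMNB1, and 58.2% to 62.0% for the other genes tested. The part of length and of GC content in these directions was not tested. On CQN-normalised values r was positive for all 9 genes and passed for 1 of them, LMNB1 (r = 0.83, exact permutation p = 0.0103, adjusted p = 0.0363, n = 8), beside 33.5% of all genes.

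Likeness between genes was described by Pearson's r of CQN-normalised values over the 8 libraries, among 11979 other genes, with no test. All 9 genes were lowest in replicate 2 or 8 on that scale, beside 35% of all genes. Values of r among them thus rest in part on these libraries, and likeness without them was not computed. KRT18 was the gene in place 23 by likeness to KRT7 (r = 0.98, rho = 0.91), and KRT8 was in place 76 (r = 0.96, rho = 0.80). On log2(CPM + 0.1) they were in places 183 and 191, with r = 0.91 for each. KRT8 was in place 457 for KRT18 on the CQN scale (r = 0.91). KRT19 had r = 0.42 with KRT7, 0.22 with KRT8 and 0.41 with KRT18. High values also crossed the families. KRT7 had r = 0.80 with each of NES, SYNM and LMNA on the CQN scale, but 0.27 with LMNB1. On the CPM scale KRT7 had r = -0.41 with SYNM. KRT18 there had r = 0.96 with LMNA, against 0.94 with KRT8 and 0.91 with KRT7. Among the lamins, LMNB2 was in place 1962 for LMNA (r = 0.52, and 0.85 on the CPM scale) and LMNB1 in place 7053 (r = -0.15, and -0.63 on the CPM scale).

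The genes most like each of 8 members (all but KRT19 and DES) on the CQN scale were INPP5A, SLC6A8 and SLC20A2 for KRT7 (r = 0.99, 0.99 and 0.98), COL7A1, CSPG4 and FAM107B for KRT8 (r = 0.99 for each) and ADORA2B, SLC38A1 and ARPC5L for KRT18 (r = 0.99 for each). Those of LMNA were WDR81, C16orf72 and POU2F1 (r = 0.99, 0.98 and 0.97), those of LMNB1 CNOT3, USP42 and DCAF12 (r = 0.97 for each) and those of LMNB2 YLPM1, AXIN1 and PEX5 (r = 0.98, 0.97 and 0.96). NES was most like KDM2A, SBDSP1 and THOP1 (r = 0.98, 0.98 and 0.97), and SYNM most like IRAK2, FDFT1 and INSIG1 (r = 0.99, 0.98 and 0.98). Most of these places did not carry over to the CPM scale. ARPC5L, AXIN1, USP42, DCAF12 and INSIG1 kept places up to 236 there, and the other 19 had places from 459 to 9754.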

How the data were processed

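Polyadenylated RNA of 8 hCMEC/D3 replicates was sequenced after TruSeq RNA v2 library preparation, per the labels' protocols. The authors deposited raw counts per gene and CQN-normalised values, per the file headers; the range of the deposited CQN values is that of a log2 scale, and CQN (conditional quantile normalisation) adjusts for gene length and GC content. The submitters' processing notes name CASAVA 1.9, TopHat2 2.0.6, HTSeq and hg19; their settings, the annotation and the use of strand are not given in the sources used here. All 16 columns were matched by replicate number, and 0 other per-sample columns were present.

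CPM used TMM-scaled library sizes (edgeR 4.0.16, R 4.3.3). Transcript lengths and exons came from GENCODE 44 lifted to GRCh37, matched for 21456 genes. Table starts count from 0 and are printed 1-based. Pairs used log2(RPKM + 0.01) and an exact sign-flip test over 256 patterns, and relations used 40320 pairings, with Benjamini-Hochberg adjustment over the 8 pairs and over all 11980 genes. Adjustment over the 9 members, as first designed, was used to label the alternatives. Variation was tested by edgeR's goodness-of-fit statistic in an intercept-only model over genes with at least 1 CPM in every library, and the code was tested on simulated data. DESeq2 1.42.0 gave alternative size factors and a trend. With 1 group, the quasi-likelihood test did not apply.

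Members and lists were chosen with earlier results of these data known. Named genes were the members, VIM, the 3 highest genes of each list and any above the trend, keratins with at least 1 CPM in every library, pseudogenes of KRT8 and KRT18, and the 3 genes most like a member. EMD, LBR, VWF, PECAM1, CDH1, ESRP1, MYOG, SOX2, GFAP, FNTB, PKP2, JUP, DSG2 and DSC2 were added after their values were seen, as were the pseudogenes and the window search. The 2 pseudogenes listed were below the 1 CPM set for naming them. A stretch of sequence of 2 keratins is not reported here.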

Additional observations from a re-analysis of the deposited data

Results flagged for a closer look

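In 18 sets of 8 values (10 gene levels and 8 ratios), 3 had an end value separated from the rest by more than Dixon's 95% limit, and chance gives this in about 1 set in 20. KRT19 was highest in replicate 8 at 4.12 CPM, with the other libraries at 1.9 to 2.85 CPM. Its CQN-normalised value in replicate 8 (2.58) lay inside the range of the others. NES was highest in replicate 7 at 326 CPM, and replicate 7 was also its highest on the CQN scale (8.55). The log2 ratio of NES to VIM was lowest in replicate 8, at -4.98, and without that library the mean ratio was -4.42.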

How the results depend on the processing

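No paired analysis was possible because all 8 libraries form 1 group. The 8 gene ratios kept their sign in all 112 recomputations; their p was the smallest possible in each, so it says nothing about stability, and sizes moved, as for NES/VIM (-4.49 to -3.12) and LMNA/LMNB2 (1.08 to 0.54), both on CPM. CPM levels moved by less than 1 SD in all 100 recomputations, and 9 of 10 genes reached the detection level under every rule tried.

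Levels per kilobase depended on the length, in alternatives added after the data were seen. With the longest transcripts, KRT8 had 9.11, KRT18 171 and LMNB1 62.4 RPKM. The shares of keratin RPKM were then 74.1% for KRT7, 21.0% for KRT18 and 1.13% for KRT8, and the type II to type I ratio was 3.42. With lengths shortened by repeated windows, the levels were 27.6 (KRT8) and 416 (KRT18) RPKM, the shares 56.2%, 38.3% and 2.57%, and the ratio 1.53. Without the KRT18 exon bases inside the listed span of KRT8, KRT18 had 381 RPKM, the shares were 58.7%, 36.9% and 1.43%, and the ratio was 1.62.

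The number of genes above the variation trend rose to 2959 with the DESeq2 trend, against 558, and KRT7 and SYNM were then among them. With the length and GC trend removed it was 776, of which 282 were among the 558. Genes without a known length were tested there with no such trend removed.

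On CQN-normalised values the relation to the length slope turned to r = 0.64 for KRT7, 0.58 for KRT8, 0.70 for KRT18, 0.38 for KRT19, 0.27 for NES, 0.12 for LMNA and 0.15 for LMNB2, and fell to 0.75 for SYNM. Adjusted over the 9 genes, LMNB1 did not pass there (exact permutation adjusted p = 0.0924). CQN adjusts for length by construction. Leaving out 1 library at a time gave r from -0.89 to -0.76 for KRT8, -0.92 to -0.78 for KRT18, -0.90 to -0.58 for KRT19, 0.87 to 0.98 for SYNM and -0.97 to -0.84 for LMNA. KRT8 lost its call without replicate 1, 3, 4, 6 or 8, KRT18 without 1, 3, 4 or 8, KRT19 without 1, 3, 4, 7 or 8, and SYNM and LMNA without 8, in fits with fewer libraries. DES rests on 3 to 14 read pairs a library and KRT19 on 68 to 174, which limits the precision of their levels.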
